A study of Mus musculus with 6 samples.

Results

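The 4 mature products of the neighbouring microRNA hairpins miR-143 and miR-145a, mmu-miR-143-3p, mmu-miR-143-5p, mmu-miR-145a-5p and mmu-miR-145a-3p, were examined among 685 mature miRNAs measured by small RNA sequencing. They were taken by name, every listed arm of both precursors, but the pair was chosen from measured values: earlier results of these libraries had shown miR-143-3p at nearly the same level in both groups and miR-145a-5p lower after RSL3. The differences between groups of all 4 members, and of ratios between them, are therefore descriptions and carry no p-value. The cells were N2a, a mouse neuroblastoma line, made neuron-like in all 6 libraries with 10 µM retinoic acid over 96 h in medium with 2% serum. The treated group (3 libraries) then had 5 µM RSL3 for 24 h, and the control group (3 libraries) had the solvent DMSO. RSL3 blocks GPX4, the enzyme that detoxifies lipid peroxides, and is used to start ferroptosis, a cell death driven by iron and lipid peroxidation. No source used here says whether the 3 libraries of a group came from separate cultures, so the SD and every p measure only the spread between these libraries, which may be technical.

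A miRNA gene is transcribed as a long primary RNA from which the nuclear enzyme Drosha cuts a hairpin. Dicer then cuts the hairpin into a duplex of a 5p and a 3p strand, and Argonaute keeps mainly 1 of them, the guide. The miR-143 and miR-145 hairpins are known to be made from a single primary transcript that is abundant in smooth muscle, where serum response factor and myocardin drive it. Their guides, miR-143-3p and miR-145a-5p, hold smooth muscle in its contractile state and are often low in tumours. Known targets of miR-145 include the stem cell factors Klf4, Sox2 and Oct4, and a known target of miR-143 is the kinase Erk5. The tumour suppressor p53 is known to enhance Drosha processing of both primary hairpins. Products of a shared transcript start from equal numbers of precursor copies. Only where the transcript is shared would the ratio of the hairpins within a library follow the steps after transcription. That ratio also depends on the different ease with which each small RNA is ligated and sequenced. The primary transcript was not measured here.

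Both hairpins lie on the minus strand of chromosome 18 (GRCm38, GENCODE M21). Mir143 spans 61649196 to 61649258 (63 bases) and Mir145a spans 61647825 to 61647894 (70 bases), with 1301 bases between them and Mir143 upstream. The annotation holds 0 genes other than miRNAs over either hairpin. The nearest model on the same strand is the long noncoding RNA gene Carmn (61649625 to 61665537), whose annotated 3′ end lies 366 bases upstream of Mir143 and 1730 bases upstream of Mir145a. Both arms of each hairpin were listed in every library, and 0 entries of the separate gene mmu-miR-145b were listed.

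Values are the authors' CPM, reads per library scaled to a common depth, with edgeR's TMM correction for composition. The listed miRNAs held 4306460 to 6058006 reads in DMSO libraries and 3406276 to 4989380 in RSL3 libraries, so RSL3 libraries were on the whole shallower. In these units the ceiling for an unseen miRNA, 3 reads, was worth 0.470 to 0.941 CPM, which covers counting error only. All 4 members passed the filter of 1 CPM in at least 3 libraries. The scarcest, miR-143-5p, rested on 85 to 226 reads, miR-145a-3p on 280 to 631, miR-145a-5p on 1919 to 5981 and miR-143-3p on 114391 to 215507.

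miR-143-3p, the guide of the upstream hairpin, was one of the most abundant miRNAs of these cells and had the same level with and without RSL3 within the spread of the libraries. It was at 33773, 36634 and 36296 CPM in DMSO libraries 1 to 3 and at 35843, 35896 and 34826 CPM in RSL3 libraries 1 to 3. The RSL3 values all lay inside the range of the DMSO values. Its mean was 35568 ± 1563 CPM without and 35522 ± 603 CPM with RSL3 (SD, n = 3 per group), a log2 difference of -0.00106 ± 0.13 (limma SE) on the log2(CPM + 1) scale. It ranked from 4th to 7th in a library, with 3.36% to 3.83% of all signal. Its coefficient of variation over all 6 libraries was 2.98%, the lowest among the 50 most abundant miRNAs, whose median was 14.4% and whose highest was 36.6%. Its near-equal levels in these libraries helped to choose it, so nothing is read from that place. The sign of so small a difference depended on the scaling: it was 0.00461 with DESeq2 size factors, -0.06 with plain CPM, -0.05 after rescaling without the 5 most abundant miRNAs and -0.14 after quantile normalization.

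miR-145a-5p, the guide of the downstream hairpin, was lower in every RSL3 library than in every DMSO library. It was at 937, 1052 and 868 CPM in DMSO libraries 1 to 3 and at 753, 602 and 641 CPM in RSL3 libraries 1 to 3. The closest libraries of the 2 groups, DMSO 3 and RSL3 1, were still apart. The means were 952 ± 93.0 and 666 ± 78.4 CPM (SD, n = 3 per group), and RSL3 libraries held 0.699 of the DMSO level, a log2 difference of -0.52 ± 0.12 (limma SE). Of the 666 miRNAs tested, 27 had a more negative difference, against a median of 0.00134 over all of them. Depth was on the whole lower in RSL3 libraries (3406276 to 4989380 reads) than in DMSO libraries (4306460 to 6058006). Its part in this difference was not tested. In a bulk library, fewer cells with a miRNA and less of it per cell cannot be told apart.

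miR-145a-3p, the partner strand of miR-145a-5p, was also lower on average after RSL3, but the groups overlapped. It was at 96.5, 126 and 124 CPM in DMSO libraries 1 to 3 and at 109.5, 87.9 and 92.8 CPM in RSL3 libraries 1 to 3. DMSO library 1 lay below RSL3 library 1. The means were 116 ± 16.5 and 96.8 ± 11.4 CPM (SD, n = 3 per group). The log2 difference was -0.25 ± 0.15 (limma SE).

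miR-143-5p, the partner strand of miR-143-3p, was the scarcest of the 4 and had a positive difference that came mainly from a single library. It was at 27.1, 27.1 and 29.1 CPM in DMSO libraries 1 to 3 and at 33.0, 26.7 and 45.3 CPM in RSL3 libraries 1 to 3. RSL3 library 2 lay below all DMSO libraries and RSL3 library 3 above all others. The means were 27.8 ± 1.17 and 35.0 ± 9.48 CPM (SD, n = 3 per group), and the log2 difference of 0.29 ± 0.19 (limma SE) was 0.09 without RSL3 library 3 and 0.47 without RSL3 library 2.

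**Figure D1:**
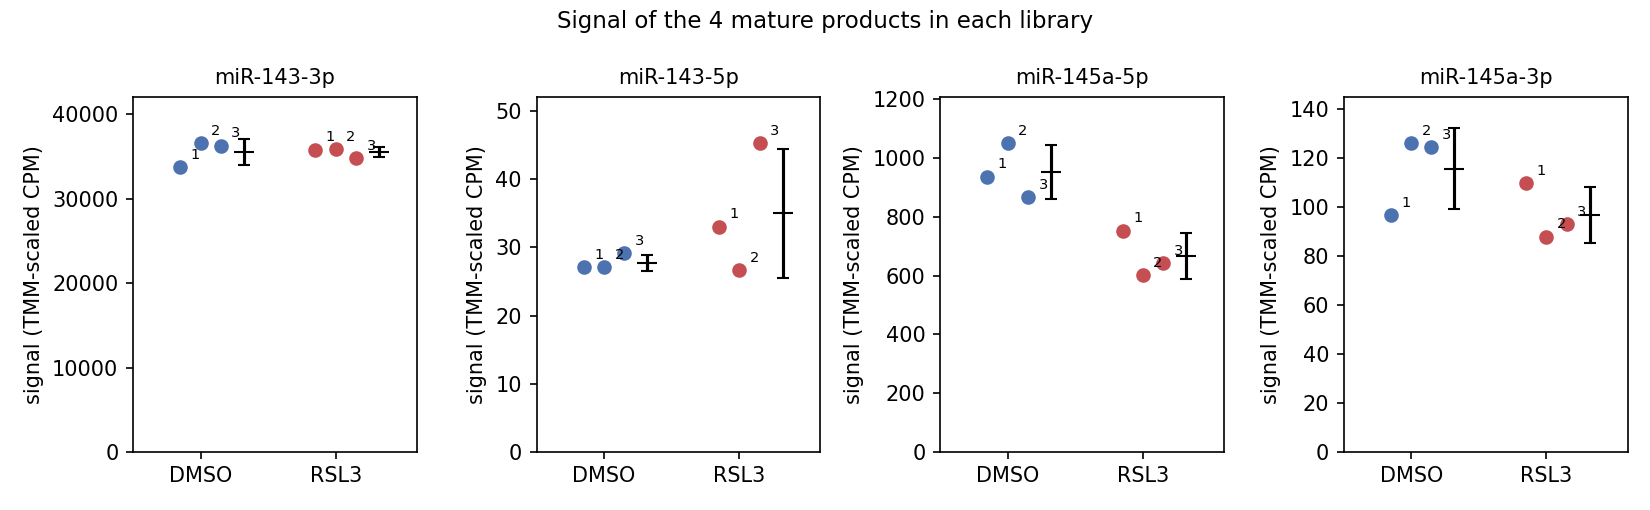
Signal in TMM-scaled CPM (vertical axes, from 0) of the 4 products in each library, with the replicate number beside each point and the mean and SD of the 3 libraries of a group in black. miR-143-3p stays between 33773 and 36634 CPM in both groups, while the RSL3 points of miR-145a-5p (602 to 753 CPM) lie below its DMSO points (868 to 1052 CPM).

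Across all miRNAs, with limma and Benjamini-Hochberg adjustment at 0.05, 0 of the 4 members were called, where 0.751% of 666 miRNAs were. At an unadjusted p under 0.05, 1 of the 4, miR-145a-5p, was counted (17.3% of all). edgeR's quasi-likelihood test on reads recovered from the values called 0 of 4 (0.901% of all) and counted miR-145a-5p at an unadjusted p under 0.05 (17.0% of all). DESeq2 called 1 of 4, miR-145a-5p, and 10.5% of the 382 miRNAs to which it gave an adjusted p. With limma miR-145a-5p was also called after rescaling without the 5 most abundant miRNAs, when 2.40% of 666 were called, and without RSL3 library 1, when 2.92% of 651 were. The groups did not overlap in 1 of the 4 members, against 24.3% of all miRNAs tested. Since this contrast helped to choose the members, nothing is read from these counts.

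The ratio of the 2 guides, miR-143-3p over miR-145a-5p, was taken within each library, where the scaling of the library cancels. It was 36.0, 34.8 and 41.8 in DMSO libraries 1 to 3 and 47.6, 59.6 and 54.3 in RSL3 libraries 1 to 3. Every RSL3 library had a higher ratio than every DMSO library. The means were 37.6 ± 3.75 and 53.8 ± 6.03 (SD, n = 3 per group), a geometric change of 1.43-fold and a log2 shift of 0.52 ± 0.12 (SE from the 2 group SDs). As the miR-143-3p level stayed within 33773 to 36634 CPM, the ratio moved with the miR-145a-5p level.

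The partner strands gave a ratio of the opposite order, since miR-145a-3p exceeded miR-143-5p in all 6 libraries. miR-143-5p over miR-145a-3p was 0.281, 0.215 and 0.235 in DMSO libraries 1 to 3 and 0.302, 0.304 and 0.488 in RSL3 libraries 1 to 3. The groups did not overlap here either, but DMSO library 1 and RSL3 library 1 lay close together and RSL3 library 3 stood apart from the other two. The log2 shift was 0.55 ± 0.26 (SE from the 2 group SDs), with a larger error than that of the guides. It includes the miR-143-5p difference of 0.29, which came mainly from RSL3 library 3. Among all pairs of neighbouring hairpins, taken up below, 26.4% had ratios that did not overlap between groups. That share is for the summed arms of each hairpin, and none was computed for ratios of partner strands.

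Summed over both arms, miR-145a made up 2.97%, 3.11% and 2.66% of the signal of the 4 members in DMSO libraries 1 to 3 and 2.35%, 1.88% and 2.06% in RSL3 libraries 1 to 3. The total of the 4 was 36663 ± 1605 CPM without and 36319 ± 621 CPM with RSL3 (SD, n = 3 per group), and those ranges overlapped. The miR-145a arms together were at 1068 ± 97.6 and 762 ± 89.8 CPM (SD, n = 3 per group) without overlap, as in 24.3% of single miRNAs. A change of this size in miR-145a hardly showed in the total, which was almost all miR-143-3p.

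In the levels themselves the order was the same in all 6 libraries: miR-143-3p, miR-145a-5p, miR-145a-3p, then miR-143-5p. The ranges of neighbours in that order did not overlap: the lowest miR-143-3p value was 33773 CPM against a highest miR-145a-5p value of 1052, the lowest miR-145a-5p value 602 against a highest miR-145a-3p value of 126, and the lowest miR-145a-3p value 87.9 against a highest miR-143-5p value of 45.3. Each read is 1 small RNA, so no length correction applies between them.

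The balance of the arms differed greatly between the hairpins. The 3p strand of miR-143 exceeded its 5p strand 1246-fold, 1353-fold and 1246-fold in DMSO libraries 1 to 3 and 1085-fold, 1346-fold and 768-fold in RSL3 libraries 1 to 3. RSL3 library 3, which had the most miR-143-5p, was the low one, and the groups overlapped. Of 182 precursors with both arms above the filter, 0 lay further toward 3p than miR-143, with a mean log2((5p + 1)/(3p + 1)) of -10.27 in DMSO and -9.98 in RSL3 libraries.

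miR-145a was less one-sided and favoured 5p. Its 5p strand exceeded its 3p strand 9.71-fold, 8.34-fold and 6.99-fold in DMSO libraries 1 to 3 and 6.88-fold, 6.85-fold and 6.91-fold in RSL3 libraries 1 to 3. The RSL3 libraries were close to one another and just below DMSO library 3, while DMSO library 1 was the highest. The mean log2 ratio on the same scale with 1 CPM added was 3.04 ± 0.24 in DMSO and 2.77 ± 0.00606 in RSL3 libraries (SD, n = 3 per group), a shift of -0.27 ± 0.18 (limma SE) that was -0.15 without DMSO library 1. Of the 182 precursors, 53 lay further toward 5p. With limma, 0 of these 2 arm ratios were called (2.75% of all) and 0 reached an unadjusted p under 0.05, as 40 of the 182 did. The groups did not overlap in 1 of the 2, miR-145a, against 24.2% of all. These ratios come from the contrast that chose the members, and nothing is read from the counts.

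**Figure D2:**
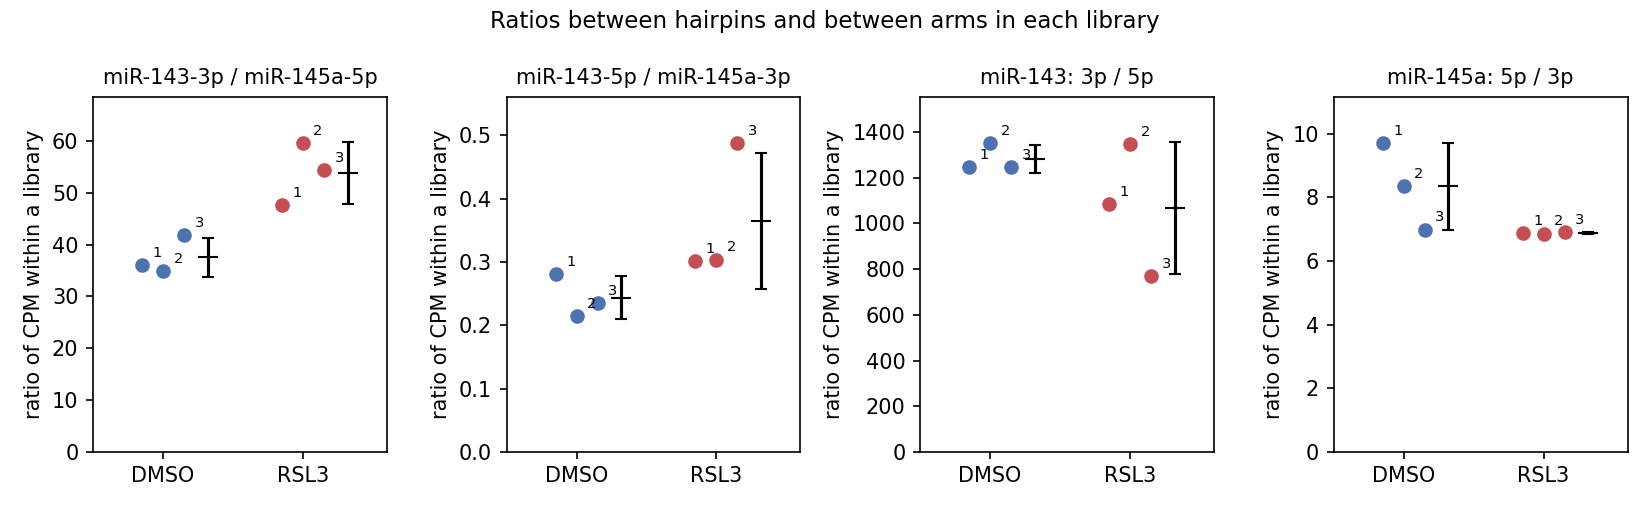
Ratios of CPM within each library (vertical axes, from 0) between the guides, between the partner strands and between the arms of each hairpin, with the replicate number beside each point and the mean and SD of each group in black. The guide ratio is 34.8 to 41.8 in DMSO and 47.6 to 59.6 in RSL3 libraries, and the miR-143 arm ratio overlaps between groups.

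**Figure D3:**
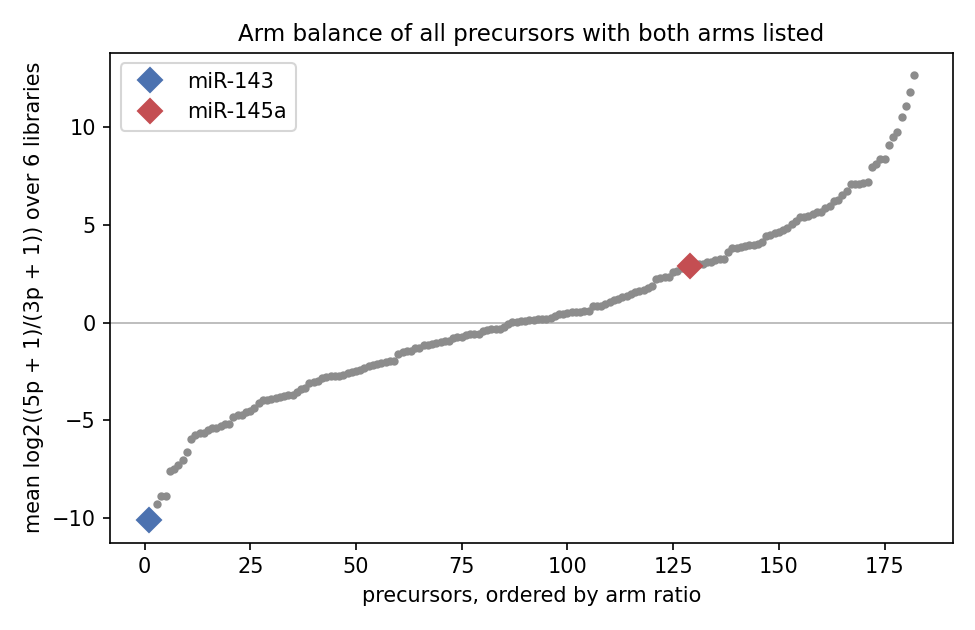
Mean log2 of 5p over 3p, with 1 CPM added to each, over 6 libraries for 182 precursors in ascending order. miR-143 is the first in the order, and 53 precursors lie further toward 5p than miR-145a.

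The shift between miR-143 and miR-145a was set beside the other neighbouring hairpins, which may share transcripts as these are known to do. No primary transcript was measured for any of them here. Pairs were hairpins next to each other on a strand with at most 10 kb between them and with no mature entry assigned to another precursor. There were 106 such pairs, miR-143 and miR-145a included. The summed miR-143 arms exceeded the summed miR-145a arms by 5.30 on the log2 scale, and 11 pairs had a larger level difference, where the median of the other 105 was 2.22. The log2 shift of the ratio after RSL3 was 0.49 ± 0.14 (limma SE), and 22 pairs had a larger shift in either direction. The other pairs had a median size of shift of 0.24, with quartiles of 0.10 and 0.42. Of the 41 pairs with both hairpins at 100 CPM or more, 6 had a larger shift.

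Of the pair tests with limma, 0.943% were called, which was 1 of 106 and not the pair of miR-143 and miR-145a. The ratio of miR-143 to miR-145a did not overlap between groups, as in 26.4% of all pairs. The levels behind this ratio chose the pair, so nothing is read from either. The SD of its ratio within groups, 0.14 on the log2 scale, was below the median of 0.25 over the other pairs, and 27 pairs had a smaller one. The pair called was miR-323 and miR-758 of the imprinted cluster on chromosome 12, with a shift of -1.26 ± 0.11 (limma SE, adjusted p = 0.00118), but miR-758 rested on 2 to 5 reads in DMSO and 5 to 12 reads in RSL3 libraries. Over the 13 alternatives that tested it, limma's adjusted p ran from 0.000915 to 0.06, and 11 called it. The next 2 by size were miR-96 and miR-182 (-0.91, adjusted p = 0.16, with miR-96 at 1.75 and 1.07 CPM) and miR-467c and miR-669k (0.90, adjusted p = 0.23), in limma too.

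**Figure D4:**
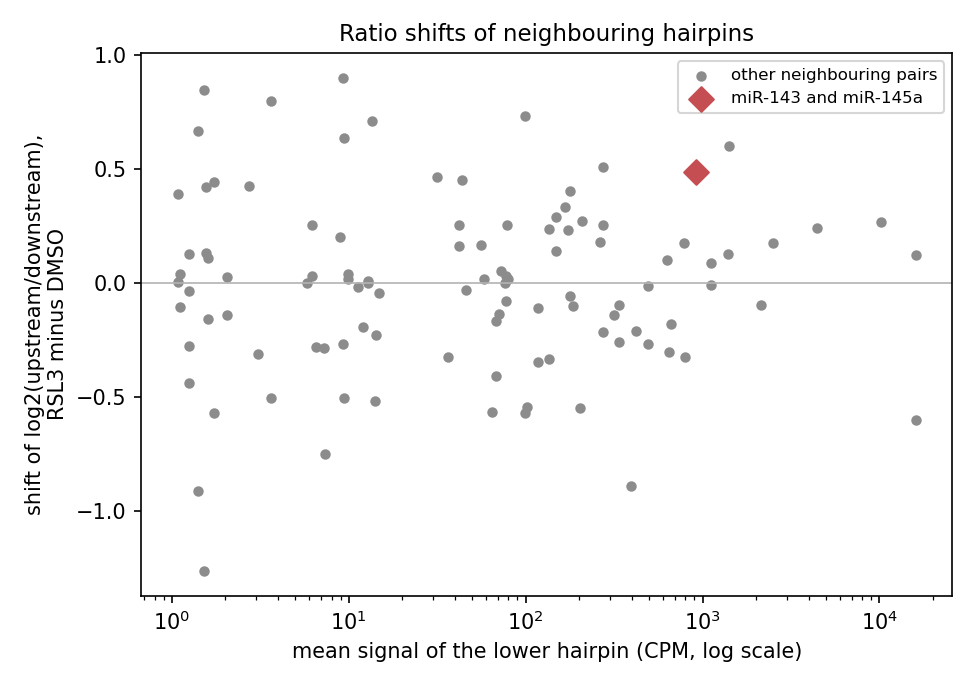
Shift of the log2 ratio of the upstream over the downstream hairpin, RSL3 minus DMSO (vertical axis), against the mean CPM of the lower hairpin of each pair (horizontal axis, log scale) for 106 neighbouring pairs. miR-143 and miR-145a, at 0.49, lie among the upper shifts, and 22 pairs are further from 0.

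Likeness of profile was measured as the root mean square difference between log2(CPM + 1) values over the 6 libraries, each miRNA centred on its own mean, for 417 miRNAs with a mean of at least 10 CPM. All of these share the same libraries. Neighbours were picked for likeness to a guide over these values, so their differences between groups follow from that choice. The profile of miR-143-3p was closest to those of miR-425-3p (0.04), miR-466d-3p (0.05), miR-488-3p (0.06) and miR-125a-5p (0.06), where the median over all was 0.20. These 4 were nearly flat, with log2 differences from -0.07 to 0.03. The profile of miR-145a-5p was closest to those of miR-423-3p (0.06), miR-344-3p (0.09), miR-344b-3p (0.09) and miR-126a-5p (0.09), with a median over all of 0.33. Each of those 4 was lower on average in RSL3 libraries, with log2 differences from -0.47 to -0.39. Its own partner miR-145a-3p came 51st in that order and miR-143-3p, the guide of the neighbouring hairpin, 144th, at a difference of 0.29.

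The mature sequences of the closest 3 miRNAs of the miR-145a-5p profile and of 3 of the miR-143-3p profile follow, to show which small RNAs tracked each guide. They are RefSeq's (GRCm38.p6), 5′ to 3′, with the seed (bases 2 to 8, which pair with target mRNAs) in capitals.
miR-423-3p: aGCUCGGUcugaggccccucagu
miR-344-3p: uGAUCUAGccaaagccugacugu
miR-344b-3p: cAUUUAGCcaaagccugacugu
miR-425-3p: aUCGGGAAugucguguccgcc
miR-488-3p: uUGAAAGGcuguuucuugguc
miR-125a-5p: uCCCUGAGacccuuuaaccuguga

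No seed is shared among these 6. miR-344-3p and miR-344b-3p share their last 18 bases and differ at the seed. On the minus strand, miR-423-3p lies at chr11:77078086-77078108 in an intron of Nsrp1, and miR-344-3p (chr7:61877782-61877804) and miR-344b-3p (chr7:61790522-61790543) lie in introns of the noncoding gene A230057D06Rik. On the plus strand, miR-425-3p lies at chr9:108568830-108568850 in an exon of the noncoding gene 4833445I07Rik, miR-488-3p at chr1:158505689-158505709 in an intron of Astn1, and miR-125a-5p at chr17:17830817-17830840 in an exon of Spaca6. miR-423-3p was at 825 ± 50.0 CPM without and 610.0 ± 61.6 CPM with RSL3 (SD, n = 3 per group), a level close to that of miR-145a-5p, and miR-344-3p was at 1447 ± 86.2 and 1051 ± 88.9 CPM (SD, n = 3 per group).

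The other miRNAs whose Drosha processing p53 is known to enhance, with miR-15a, the neighbour of miR-16-1, had 8 tested entries. Of these 3 had a positive and 5 a negative log2 difference, with a median of -0.09 beside 0.00134 over all 666, of which 49.8% were negative. With limma, edgeR and DESeq2 0 of the 8 were called, where 0.751%, 0.901% and 10.5% of all miRNAs given an adjusted p were. DESeq2 gave no adjusted p to 284 of the 666 miRNAs, and in this and the following lists any such entry counts as not called. At an unadjusted p under 0.05 in limma 1 was counted, miR-15a-5p, on the lower side, as were 8.41% of all. The most abundant were miR-26a-5p, a growth-restraining miRNA, at 5080 ± 443 CPM without and 4711 ± 418 CPM with RSL3, and miR-103-3p at 2717 ± 429 and 2982 ± 305 CPM (SD, n = 3 per group). miR-16-5p, which comes from the miR-16-1 hairpin and another copy, was at 972 ± 102 and 1080 ± 79.5 CPM (SD, n = 3 per group), a log2 difference of 0.15. miR-16-1-3p, the partner strand from miR-16-1 alone, was at 191 ± 12.5 and 165 ± 5.96 CPM (SD, n = 3 per group), a log2 difference of -0.20.

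The other miRNAs tied to serum response factor or smooth muscle had 12 tested of 13 listed entries, of which 6 had a positive and 6 a negative log2 difference, with a median of 0.01. With limma, edgeR and DESeq2 0 of the 12 were called (0.751%, 0.901% and 10.5% of all miRNAs given an adjusted p), where any entry without a DESeq2 adjusted p counts as not called. At an unadjusted p under 0.05 in limma 1 was higher (miR-28a-3p, 8.86% of all). On the lower side was 1 of low level (miR-133a-3p, at 4.33 ± 1.24 CPM without and 1.85 ± 1.13 CPM with RSL3, SD, n = 3 per group, where 8.41% of all were). Their most abundant member, the growth-associated miR-21a-5p, was at 32047 ± 2817 CPM without and 39494 ± 3760 CPM with RSL3 (SD, n = 3 per group), close to the level of miR-143-3p. miR-15a-5p, miR-16-5p, miR-16-1-3p, miR-28a-3p and miR-133a-3p were singled out after their values were seen.

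As miR-143 and miR-145a are known as miRNAs of mural cells and fibroblasts, markers of other cell types were measured beside them. The labelled cell type was represented by 19 neuron-enriched entries, which summed to 243681 to 328869 CPM without and 208175 to 262822 CPM with RSL3, most of it miR-7a-5p (225023 ± 38694 and 181728 ± 26834 CPM) and miR-7b-5p (30817 ± 4717 and 25541 ± 4167 CPM, SD, n = 3 per group). Of these 19, 8 had a positive and 11 a negative log2 difference. In limma, edgeR and DESeq2 0 of them were called (0.751%, 0.901% and 10.5% of all miRNAs given an adjusted p), where any entry without a DESeq2 adjusted p counts as not called. At an unadjusted p under 0.05 in limma 1 was higher (miR-9-5p, 8.86% of all). The 12 fibroblast and mural cell entries had 9 negative log2 differences and a median of -0.22. With limma and edgeR 0 of them were called, at an unadjusted p under 0.05 in limma 4 were lower (miR-152-5p, miR-22-3p, and miR-199a-3p and miR-199b-3p, which share a mature sequence), as were 8.41% of all miRNAs, and DESeq2 called miR-152-5p lower (10.5% of all were called in either direction). Their sum was 2748 to 3342 CPM without and 2576 to 2970 CPM with RSL3, so the groups overlapped. This sum and the counts of the 12 entries hold both miR-199a-3p and miR-199b-3p, whose values were nearly identical. The most abundant were miR-152-3p, at 1021 ± 66.0 and 1153 ± 160.4 CPM, and miR-199a-3p, at 611 ± 97.2 and 478 ± 41.1 CPM (SD, n = 3 per group). In every library miR-143-3p alone, at 33773 CPM or more, exceeded this sum.

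The arms of the endothelial miR-126a went in opposite directions, with log2 differences of 0.38 for miR-126a-3p and -0.47 for miR-126a-5p, and their sum did not overlap (642 to 701 CPM without and 781 to 907 CPM with RSL3). The groups did not overlap in 24.3% of all single miRNAs tested, and no such share was computed for sums of entries. The 4 striated muscle entries all had negative differences (sum 156 to 276 CPM without and 123 to 186 CPM with RSL3), led by miR-1a-3p (-0.41) and miR-499-5p (-0.14). The 6 blood entries had 5 positive and 1 negative differences (sum 124 to 155 and 139 to 206 CPM), led by miR-451a (0.08) and miR-486b-5p (0.23), which miR-486a-5p matches too closely for its reads to be told apart with certainty. The 6 glial entries had 4 positive and 2 negative differences and summed to 847 to 948 and 1028 to 1210 CPM, without overlap, as in 24.3% of single miRNAs. miR-23a-3p made up the greater share of that sum, with 685 ± 61.0 and 897 ± 115 CPM (SD, n = 3 per group, log2 difference 0.38). It was followed by miR-219a-2-3p (0.05), and the remaining glial entries had log2 differences from -0.18 to 0.23. The liver miRNA miR-122-5p was at 2.24 ± 1.14 and 4.48 ± 1.85 CPM (SD, n = 3 per group). With limma and edgeR 0 entries of these 5 lists were called (0.751% and 0.901% of all miRNAs). At an unadjusted p under 0.05 in limma 4 were higher (miR-126a-3p, miR-150-5p, miR-23a-3p and miR-122-5p, where 8.86% of all miRNAs were). On the lower side were 2 (miR-126a-5p and miR-133a-3p, where 8.41% of all were). DESeq2 called miR-126a-3p higher (10.5% of all were called in either direction). Marker entries named only for their test result were singled out after their values were seen. None of the entries of these lists was at 0 in all libraries, but a marker without an entry has no value here. Without an entry were miR-1b, miR-133b, miR-208a and miR-208b of striated muscle and miR-144 and miR-223 of blood. The same held for the endothelial miR-126b and the glial miR-219b. The part of other cells in the lower miR-145a-5p level was not tested.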

How the data were processed

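Small RNA libraries (inserts of 15 to 35 nt, 50 cycles) were made from 3 DMSO and 3 RSL3 samples. Per the submitters' processing notes, cutadapt, Bowtie, edgeR and GRCm38 were used; the sources used here give neither versions nor settings, nor how multiply matching reads were handled. In the deposited signal, which the authors named CPM, 100% of values were whole multiples (within 0.01) of a library's own step. Dividing by that step recovered the reads, and their TMM factors (0.936 to 1.05) rebuilt the deposited values, so TMM-scaled CPM was used where plain CPM had been assumed. Replicates differed by far more than counting noise (chi-square per degree of freedom from 73.0 to 257).

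Tests used R 4.3.3 and limma 3.58.1 with a mean-variance trend on log2(CPM + 1), which understates changes of low miRNAs, two-sided, for 666 miRNAs at 1 CPM or more in at least 3 libraries (19 set aside), 106 neighbouring pairs and 182 arm ratios, with Benjamini-Hochberg adjustment over each whole table. edgeR 4.0.16 and DESeq2 1.42.0 ran on recovered reads. Scripts were tested on simulated data. Members, lists and tests were chosen with earlier results of these data known. Named miRNAs were the members, 4 profile neighbours each of miR-143-3p and miR-145a-5p, the 2 most abundant and any called entries of each list, and the 3 most shifted other pairs, which include the called one. A precursor was found for 678 of 685 entries. Of the 4 members 0 had a RefSeq mature sequence in the table used, so shared seeds with other miRNAs were not examined.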

Additional observations from a re-analysis of the deposited data

How the results depend on the processing

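Under 10 to 19 alternatives each, the log2 differences of miR-143-5p (0.09 to 0.47), miR-145a-5p (-0.61 to -0.44) and miR-145a-3p (-0.37 to -0.18), the ratio shift of miR-143 to miR-145a (0.41 to 0.57) and the arm shifts of miR-143 (0.08 to 0.47) and miR-145a (-0.39 to -0.15) kept their sign and moved by less than the SD within groups. That of miR-143-3p, -0.00106 as reported, moved by more than its small SD with plain CPM (-0.063), after rescaling without the 5 most abundant miRNAs (-0.053) and after quantile normalization (-0.14). Over all tables the counts of calls depended on the setting. Higher miRNAs, 4 as reported, were 2 with plain CPM, 1 without a variance trend and 19 in DESeq2. Lower miRNAs, 1 as reported, were 12 after that rescaling, 2 in edgeR, 21 in DESeq2, 3 with a 10 CPM filter and 0 without a variance trend. Called pairs, 1 as reported, were 2 when 0.5 was added before the log, 0 when 5 was added, 2 at most 2 kb apart and 0 with a 10 CPM filter. Called arm ratios, 5 as reported, were 2 when 0.5 and 11 when 5 was added. Leaving out DMSO library 1, 2 or 3 or RSL3 library 1, 2 or 3 in turn gave 2, 1, 4, 7, 14 and 2 higher miRNAs, 1, 0, 0, 12, 5 and 0 lower miRNAs, 2, 1, 3, 3, 2 and 1 pairs and 3, 1, 1, 6, 2 and 1 arm ratios. For these changes the cause was not tested. With the replicate number as a block there were 1 higher and 0 lower miRNAs, 0 pairs and 2 arm ratios. Same-numbered libraries did not deviate together (r of -0.35, -0.33 and -0.19 across miRNAs), while differently numbered ones had r of 0.04 to 0.30. With 3 libraries per group, whose deviations sum to 0, this cannot exclude that same-numbered libraries shared a culture or preparation. Leaving out the miR-297, miR-466, miR-467 and miR-669 families, chosen after seeing the data, left 1 pair called. Depth limits miR-143-5p most.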
